A study of Homo sapiens with 3 samples.

Results

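HA-TFE3 binding summits were described at 9 genes that set the pace of the cell cycle, CCND1, CCND3, CDK6, CDKN1A, CDKN1B, CDKN2A, CDKN2B, E2F1 and MYC. The genes were taken as 8 spans of the hg19 genome, each with 5 kb added on both sides, with CDKN2A and CDKN2B in 1 span because they lie side by side. The spans held 50 of the 62287 summits of replicate 1 and 63 of the 72647 summits of replicate 2. A summit was called shared if it formed a mutually nearest pair with one of the other list within 100 bp, and 38 of the 47396 shared summits lay in the spans. The series comprised 3 samples, an input DNA library and duplicate HA-TFE3 ChIP libraries, all from HK-2 HA-TFE3-inducible cells, and the input was not analysed here. In every sample HA-TFE3 is under doxycycline control, and the protocol gives a culture of 24 h with or without 0.2 µg/ml doxycycline. The labels do not say which libraries had doxycycline, nor whether the replicates were grown separately, so their spread may be purely technical. HK-2 is an established line of human kidney proximal tubule cells that carries the E6 and E7 genes of a human papillomavirus. As background, these viral proteins are known to inactivate p53 and the retinoblastoma protein RB, both of which act on several of the genes described here.

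The members act on the step from G1 into DNA synthesis. D-type cyclins bind the kinases CDK4 and CDK6, which phosphorylate RB and thereby release E2F transcription factors that switch on genes for DNA replication. The CDKN1 and CDKN2 proteins restrain these kinases, and MYC drives growth and raises the expression of several genes of the pathway. TFE3 and MYC both belong to the basic helix-loop-helix leucine zipper class, whose members are known to bind the E-box CACGTG.

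A summit is a single base that the authors listed with a score. The score has no stated scale, so it is given as deposited and as a percentile, its rank within its own list from 0 to 100. Over all summits the median score was 8.55 in replicate 1 and 8.38 in replicate 2. Many summits have equal scores, since the lists hold 1995 and 2095 distinct values. The lists hold summits and scores without read counts, so depth is unknown. Positions are bases of hg19 in replicate 1. Distances run in the direction of the gene from the 5′ edge of its span, which was given in whole kb and does not mark every start that a gene uses.

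Each of the 8 spans with its 5 kb flanks held at least 3 shared summits. Of the 38, 29 lay inside the spans themselves, where CCND1 had 2 and CDKN1B, E2F1 and MYC had 1 each. With a pairing limit of 50 bp CCND1, CDKN1A and CDKN1B had 2 each with their flanks. Together the spans and flanks covered 523 kb and held 72.7 shared summits per Mb, against 15.6 per Mb over the genome. The genome value is over whole chromosomes and was not matched for genes. The rest of 500 kb on each side of the spans held 12.1 to 58.6 per Mb. The members were chosen with earlier results of these data known. Shared summits made up 76.0% of the spans' summits in replicate 1 (95% exact binomial interval 61.8 to 86.9) and 60.3% in replicate 2 (47.2 to 72.4), where the background over whole lists was 76.1% and 65.2%. The whole-list shares lay inside both intervals, which cover counting error only. The median percentile of the shared summits in the spans was 63.1 in replicate 1 and 62.0 in replicate 2, against 59.1 and 64.3 for all shared summits. Over all summits of the spans, shared or not, the median percentile was 49.2 in replicate 1 and 38.9 in replicate 2, against 50.1 in replicate 1 and 50 in replicate 2 for the whole lists. In replicate 2 the median summit of the spans thus ranked below the middle of the list. Of the 38 pairs, 5 lay above percentile 90 in both lists, or 13.2%, against a background of 9.11% of all pairs. No test was made of these shares, and neighbouring summits are not independent.

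Among the spans, those of CDKN1B and of CDKN2A with CDKN2B, at its CDKN2B end, held the highest-scoring shared summits within 2 kb of a 5′ edge. The highest-ranked pairs of the whole spans lay beyond this distance, at CDKN1A and then at CCND3. CDKN1A encodes p21, a general CDK inhibitor and a classical p53 target. Its span on chromosome 6 (36644 to 36656 kb, plus strand, band 6p21.2) held 3 summits in each list, and all 3 were shared. The strongest, at base 36646344, scored 50.3 in replicate 1 and 65.2 in replicate 2, at percentiles 99.2 and 99.8. It ranked 248 among the 47396 pairs by mean percentile, the highest rank of any pair in the spans, and lay 2.34 kb inside the 5′ edge. The next, at base 36648358, scored 13.7 and 10.7 (percentiles 70.8 and 59.3). Between them, base 36647180 was a minor summit in both lists, with scores of 2.80 and 4.34 (percentiles 3.0 and 12.5). The 3 summits spanned about 2 kb, with spacings of 836 and 1178 bp in replicate 1 and 832 and 1128 bp in replicate 2, and the rest of the gene held none. RefSeq lists 1 promoter for CDKN1A on GRCh38.p14, and the 250 bases before its start (chr6:36678464-36678713, plus strand) are shown because the gene has the strongest pair. No genome sequence of hg19 was used here, so the position of the summit within this sequence is not given.
CDKN1A: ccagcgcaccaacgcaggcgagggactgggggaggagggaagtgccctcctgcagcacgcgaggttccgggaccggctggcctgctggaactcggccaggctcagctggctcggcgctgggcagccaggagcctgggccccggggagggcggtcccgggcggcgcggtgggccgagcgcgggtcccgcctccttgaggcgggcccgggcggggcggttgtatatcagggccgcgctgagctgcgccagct

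CDKN1B encodes p27, which inhibits cyclin E-CDK2 and holds cells in quiescence. Its span on chromosome 12 (12870 to 12876 kb, plus strand, band 12p13.1) held 5 summits in each list, of which 3 were shared. The summit at base 12870193, 193 bp inside the 5′ edge, scored 32.2 in replicate 1 and 44.4 in replicate 2. Its percentiles, 95 and 97.9, placed it among the pairs above percentile 90 in both lists. The other shared summits lay beyond the gene's end, at base 12878769 with scores of 15.1 and 14.0 and at base 12879847 with scores of 6.02 and 4.59. Further inside the gene the lists held only single summits, of which the highest was at percentile 18.7. By the RefSeq gene table of GRCh38.p14, GPR19, a receptor gene, is the neighbour on the 5′ side of CDKN1B, and a long noncoding RNA gene and APOLD1 follow on its 3′ side. The distance from the summit to these neighbours was not measured. The 250 bases before the start of CDKN1B (chr12:12717118-12717367 of GRCh38.p14, plus strand) are shown because a strong shared summit lies close to the 5′ edge of its span.
CDKN1B: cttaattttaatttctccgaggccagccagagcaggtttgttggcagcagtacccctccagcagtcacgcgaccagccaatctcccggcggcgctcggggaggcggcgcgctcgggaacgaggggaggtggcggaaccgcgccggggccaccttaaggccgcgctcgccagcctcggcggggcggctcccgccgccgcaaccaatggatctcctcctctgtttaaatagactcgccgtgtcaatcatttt

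CDKN2A encodes the CDK4 and CDK6 inhibitor p16 and, from another start, ARF, which stabilises p53, while CDKN2B encodes the related inhibitor p15. Their common span on chromosome 9 (21967 to 22010 kb, minus strand, band 9p21.3) held 3 summits in replicate 1 and 7 in replicate 2. All 3 summits of replicate 1 were shared. The strongest lay at the CDKN2B end, at base 22009391 and 609 bp inside the 5′ edge, with scores of 29.6 in replicate 1 and 38.8 in replicate 2 (percentiles 93.6 and 96.6). A second shared summit, at base 22008753, lay 638 bp further into the gene in replicate 1 and 711 bp further in replicate 2, with scores of 9.91 and 8.30. The third, at base 21975143, lay in the CDKN2A part of the span, 34.9 kb from the 5′ edge, and scored 12.6 and 10.8 (percentiles 67.4 and 60.3). RefSeq lists 2 starts for CDKN2A on GRCh38.p14, and the summit was not assigned to either. Replicate 2 alone had summits at bases 21994374 and 21994655, at percentiles 12 and 27.4, and the nearest summit of replicate 1 was 14098 bp away. This span had the darkest staining band of the 8, a class of band poor in genes. The noncoding gene CDKN2B-AS1 overlaps this locus in the RefSeq table, so the summits cannot be assigned to the protein-coding genes alone. The 250 bases before the start of CDKN2B (chr9:22009306-22009555 of GRCh38.p14, minus strand) are shown for the same reason as those of CDKN1B.
CDKN2B: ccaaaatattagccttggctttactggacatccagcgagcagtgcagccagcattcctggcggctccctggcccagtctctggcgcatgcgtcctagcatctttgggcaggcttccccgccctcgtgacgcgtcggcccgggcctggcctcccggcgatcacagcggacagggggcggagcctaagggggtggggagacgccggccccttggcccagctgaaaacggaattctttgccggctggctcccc

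The plot of the short spans sets the inhibitors beside MYC, E2F1 and CCND1.

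**Figure D1:**
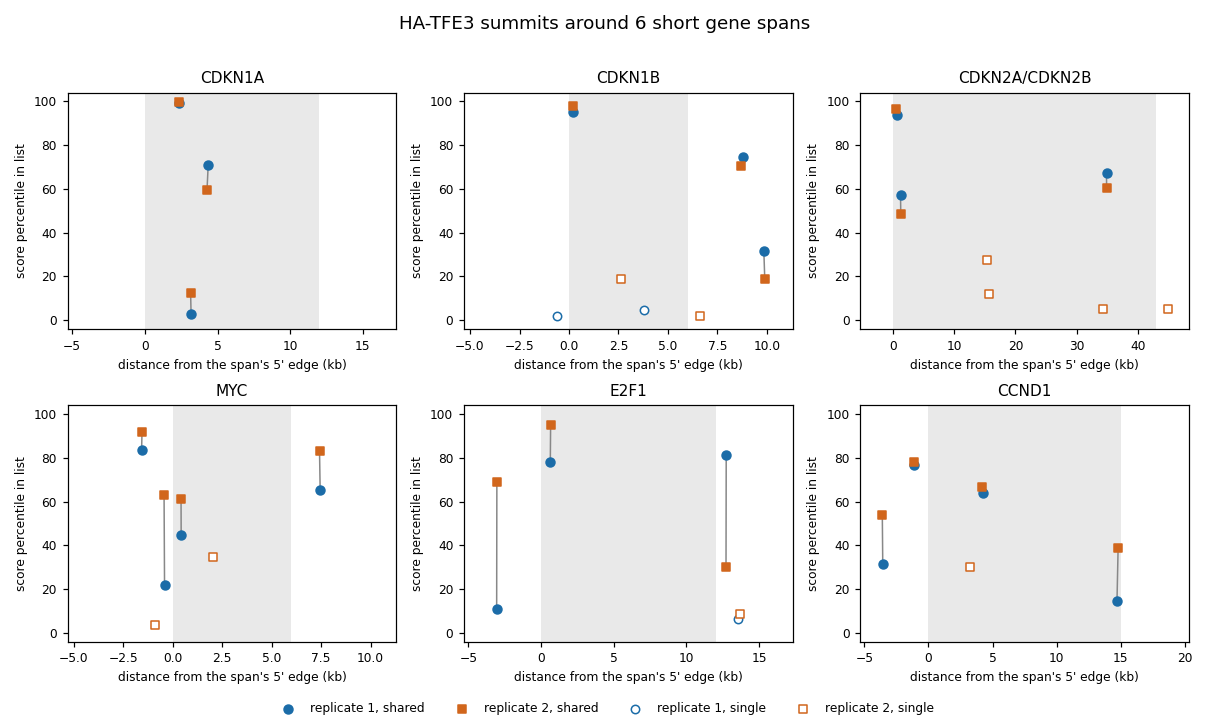
HA-TFE3 summits at 6 short gene spans, by distance from the 5′ edge of the span in the direction of the gene (x axis, kb) and by score percentile within the list of each replicate (y axis). Grey marks the gene span, filled points joined by a line are shared pairs and open points were found in 1 list. The panels of CDKN1A, CDKN1B and CDKN2A/CDKN2B each have a pair near the top, at 99.2 and 99.8, 95 and 97.9, and 93.6 and 96.6.

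E2F1 encodes the RB-bound factor that is released at the start of DNA synthesis. Its span on chromosome 20 (32263 to 32275 kb, minus strand, band 20q11.22) held 4 summits in each list and 3 were shared. The one at the start, at base 32274370 and 630 bp inside the 5′ edge, scored 16.6 in replicate 1 and 34.3 in replicate 2 (percentiles 78.2 and 95.1). The replicates disagreed on the other pairs. Base 32262267, past the end of the gene towards its neighbour NECAB3, scored 18.3 in replicate 1 and 5.74 in replicate 2. Base 32278061, upstream of the gene, scored 4.02 and 13.3, which placed it at percentiles 10.9 and 68.8. This difference of 57.9 points was the largest of the 38 pairs. In position the replicates were close, since the 3 pairs lay 14, 22 and 14 bp apart. The promoter of E2F1 is known as a target of E2F factors themselves. The 250 bases before its start (chr20:33686386-33686635 of GRCh38.p14, minus strand) hold 1 match to the E2F motif TTTNGCGC, in capitals, which begins 20 bases before the start. This motif was chosen after the sequences were seen.
E2F1: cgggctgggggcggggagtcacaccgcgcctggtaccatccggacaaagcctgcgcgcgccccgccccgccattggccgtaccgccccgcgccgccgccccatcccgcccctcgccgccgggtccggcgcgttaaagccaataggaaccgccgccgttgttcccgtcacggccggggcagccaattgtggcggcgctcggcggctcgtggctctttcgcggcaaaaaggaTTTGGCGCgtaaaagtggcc

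MYC, a transcription factor that drives growth and entry into the cell cycle, lies on chromosome 8 (128748 to 128754 kb, plus strand, band 8q24.21). Its span held 4 summits in replicate 1 and 6 in replicate 2, and all 4 of replicate 1 were shared. With its flanks it was the densest of the spans, at 250 shared summits per Mb. Only 1 of the 4 lay in the 6 kb span itself, the same number as in the 6 kb of CDKN1B. The 12 kb span of CDKN1A itself held 3, so the first place of MYC rests on the flanks. Of all windows as long as the MYC span with its flanks, a background of 0.523% held at least 4 shared summits. Among windows in lightly stained bands 0.837% did. The band of MYC itself is not among the lightly stained ones. The strongest shared summit lay upstream of the gene, at base 128746428 and 1.57 kb before the 5′ edge, and scored 19.3 in replicate 1 and 28.5 in replicate 2 (percentiles 83.4 and 91.7). Another pair lay on each side of the edge. Base 128747588, 412 bp before it, scored 5.05 and 11.4, and base 128748428, 428 bp after it, scored 7.73 and 11.1. The fourth, at base 128755452 beyond the gene's end, scored 12.1 and 20.4. Each of the 4 pairs ranked higher in replicate 2, by 8.3 to 41.2 percentile points. So did all 4 pairs of CCND1, and 57.2% of all pairs in the lists. These are few neighbouring pairs, which are not independent, so they do not set MYC apart from this share. MYC thus had a summit at percentiles 83.4 and 91.7 before its 5′ edge and weaker pairs on each side of the edge. None lay above percentile 91.7 in either list.

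CCND1 encodes cyclin D1, the D-type cyclin most often amplified in tumours. Its span on chromosome 11 (69455 to 69470 kb, plus strand, band 11q13.3) held 4 summits in replicate 1 and 5 in replicate 2, and all 4 of replicate 1 were shared. The highest, at base 69453904 and 1.10 kb before the 5′ edge, scored 15.9 in replicate 1 and 17.2 in replicate 2 (percentiles 76.9 and 78.2). Base 69459268 inside the gene scored 11.4 and 12.6, and base 69451441 upstream scored 6.02 and 9.50. The lowest, base 69469696 at the 3′ end, scored 4.54 and 6.95. The shared summits of CCND1 thus ranged from percentile 14.5 to 78.2, and no pair came near percentile 90. The surroundings were sparse. In the rest of 500 kb on each side there were 12 shared summits, or 12.1 per Mb, below the genome mean, against 160 per Mb in the span with its flanks.

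CCND3 encodes cyclin D3 and spans 117 kb of chromosome 6 (41902 to 42019 kb, minus strand, band 6p21.1). It held 15 summits in replicate 1 and 14 in replicate 2, of which 8 were shared. The strongest lay deep inside the span, at base 41909635 and 109.4 kb from the 5′ edge, and scored 50.6 in replicate 1 and 49.3 in replicate 2 (percentiles 99.2 and 98.7). It ranked 493 among all pairs. A pair at base 41934856 followed with scores of 34.7 and 32.5 (percentiles 96.1 and 94.3). Base 41904183, near the 3′ end, scored 19.3 and 17.9. RefSeq lists 3 starts for CCND3 on GRCh38.p14, and the strong summits were not assigned to any of them. At the 5′ edge itself a close pair of shared summits was weaker. Base 42018551 scored 9.89 and 9.50, and base 42018276 scored 4.83 and 2.47, at spacings of 275 bp in replicate 1 and 319 bp in replicate 2. TAF8 is the next protein-coding gene on this side in the RefSeq table, and its distance from these summits was not measured. Base 41907308 scored 5.23 in replicate 1 and 16.4 in replicate 2, a difference of 54.4 percentile points. The remaining shared summits, at bases 41935634 and 41938437, lay at percentiles 11.2 or lower in both lists. Between 80.6 kb and 0.724 kb from the edge, a stretch of 79.8 kb, no summit was shared, although both lists had single summits there. The highest of these single summits, at base 41985130 in replicate 1 (percentile 62.2), lay 123 bp from one of replicate 2.

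CDK6, the kinase partner of the D cyclins, is the longest member, at 232 kb of chromosome 7 (92234 to 92466 kb, minus strand, band 7q21.2). It held 12 summits in replicate 1 and 19 in replicate 2, and the 10 shared ones were spread along the gene between 26.7 and 215.5 kb from the 5′ edge. The highest was base 92370295, with scores of 24.1 in replicate 1 and 15.6 in replicate 2 (percentiles 89.3 and 75.2). Bases 92262924 and 92264441 formed a group near the 3′ part, the first with scores of 15.5 and 18.8 and the second with 12.9 and 17.2. Base 92393061 scored 20.5 and 8.57, and base 92439262 scored 11.2 in both lists. Base 92250537, the sixth by mean percentile, scored 10.03 and 7.30. The other 4 shared summits had mean percentiles of 19.2 to 44.6. Among them bases 92271331 and 92271683, 352 bp apart in replicate 1 and 357 bp apart in replicate 2, scored 2.80 and 2.64 in replicate 1 and 9.50 both times in replicate 2. The score of 9.50 is a tied value that 1650 summits of replicate 2 have.

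At the start of CDK6 the lists held summits at different places. Replicate 1 had summits 3.58 and 4.52 kb inside the 5′ edge (percentiles 35.3 and 36.3), and replicate 2 had summits at 1.14, 1.74 and 2.69 kb (percentiles 2.8, 8.7 and 3.3). The closest of them lay 887 bp apart, so the start held no shared summit at a limit of 100 bp or of 500 bp. An E-box CACGTG was found in a RefSeq promoter entry of CDK6 and of no other among the 7 members that have an entry. This is 1 of 11 member entries and 1 of 7 genes, against a background of 7.26% of all entries and 8.77% of all genes. So few entries do not set CDK6 or the members apart from the background. The match begins 31 bases after the start in 1 of its 2 entries. The 30 bases around it (chr7:92836526-92836555 of GRCh38.p14, minus strand) are shown with the E-box in capitals.
CDK6: cgaggccgcggaCACGTGcggagagccgac

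**Figure D2:**
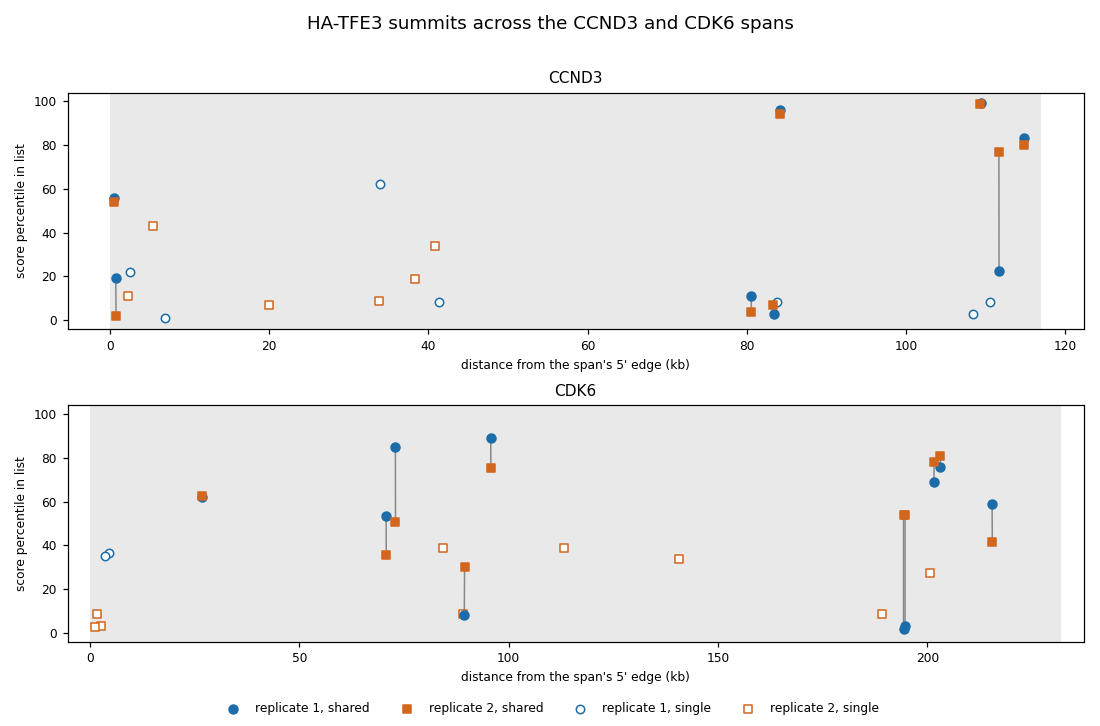
HA-TFE3 summits across the CCND3 and CDK6 spans, by distance from the 5′ edge in the direction of the gene (x axis, kb) and score percentile within the list of each replicate (y axis), with symbols for shared and single summits as in the legend. In CCND3 the pairs at 109.4 and 84.1 kb lie at percentile 94.3 or higher in both lists, and in CDK6 the first 5 summits from the 5′ edge are all single.

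Summits near the 5′ edges were compared over the 8 spans. Each edge is in whole kb and need not be a start that RefSeq lists. Within 2 kb of the 5′ edge there were 10 shared summits in 6 spans, 3 of them at MYC, 2 each at CCND3 and CDKN2B, and 1 each at CCND1, CDKN1B and E2F1. CDKN1A and CDK6 had none within this distance of the edge, and CDKN1A had 3 within 5 kb of it. How far the CDKN1A summits lie from its RefSeq start was not measured, so they may be closer to a start than to the edge. Over the genome 5.4% of windows of 4 kb held a shared summit. The share over the starts of all genes would be the closer background and was not computed, because no hg19 gene annotation was used here. In 5 of the 8 spans the highest-ranked shared summit lay within 2 kb of the 5′ edge, and in CDKN1A it lay just beyond. In CCND3 and CDK6 it lay far inside the span, at 109.4 and 95.7 kb from this edge. RefSeq lists 3 starts for CCND3, and the distance of its summit from the other starts was not measured.

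The spans were then put in the order of the mean percentile of their highest-ranked pair (SD over n = 2 replicates). CDKN2A and CDKN2B share a span and a place, given by the pair at the CDKN2B end. CDKN1A stood at 99.5 ± 0.4 and CCND3 at 99.0 ± 0.4, and these swapped places between the replicates by score. CDKN1B followed at 96.5 ± 2.1 and CDKN2B at 95.1 ± 2.1, whose ranges overlapped. MYC came next at 87.5 ± 5.9, E2F1 at 86.6 ± 11.9, CDK6 at 82.3 ± 9.99 and CCND1 at 77.6 ± 0.9. The ranges of neighbours overlapped from MYC to CCND1. The ranges did not overlap between CCND3 and CDKN1B, nor between CDKN2B and MYC. The 2 values of E2F1, 78.2 and 95.1, however reached into the ranges of CDKN2B and CDKN1B. Each value is the highest among the shared pairs of a span, which number from 3 to 10, so spans with more pairs had more chances. Percentiles near 100 can differ little between lists, so the SDs are not comparable along the order. The order is a description of 2 libraries, and no test was made of it.

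Differences between the replicates were set beside those of all shared pairs. The median difference of a pair was 10.5 percentile points in the spans, against 11.7 over all pairs. A difference above 25 points was seen in 7 of the 38 pairs, or 18.4%, against a background of 22.9%. Of the 38 pairs, 22 ranked higher in replicate 2, where 57.2% of all pairs did. All 4 pairs of CCND1 and all 4 of MYC did so, while 6 of the 8 pairs of CCND3 ranked higher in replicate 1. The paired summits lay a median of 32.5 bp apart, against 26 bp over all pairs, with a largest distance of 93 bp at CDK6. The closest summits outside the limit of 100 bp were 111 bp apart, downstream of E2F1, and had scores of 3.57 in replicate 1 and 3.49 in replicate 2.

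**Figure D3:**
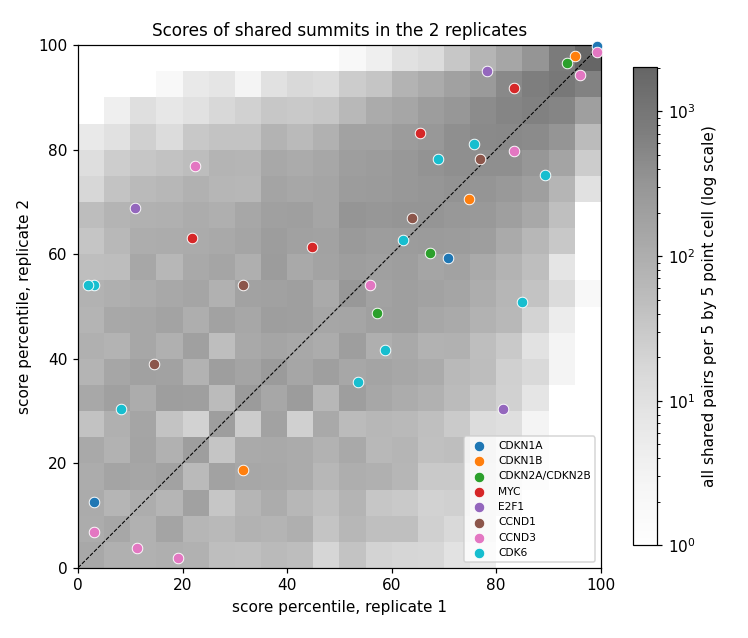
Score percentile of each shared summit in replicate 1 (x axis) and replicate 2 (y axis), coloured by gene span, over a grey map of all 47396 shared pairs (darker cells hold more pairs, log scale) and a dashed line of equal percentiles. The pairs of CDKN1A, CCND3, CDKN1B and CDKN2B at the upper right lie close to the line. Percentiles at the top of both lists can differ little, so this closeness does not set these genes apart. Lower on the scale, where there is more room to differ, some pairs of E2F1, CDK6 and CCND3 lie far from the line, by up to 57.9 points.

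Single summits in the spans had low scores, as did single summits over the whole lists. There were 12 in replicate 1 and 25 in replicate 2, and 11 and 25 of them scored below the median of their list, where the background was 80.6% and 81.3% of all single summits. Their median percentile was 8.16 in replicate 1 and 10.9 in replicate 2, against 24.8 and 27.4 for all single summits. In each list 2 of them, at CCND3 and E2F1, had a summit of the other list within 200 bp, or 16.7% in replicate 1 and 8% in replicate 2, against 17.8% and 10.5% of all single summits. CDK6 had 9 of the 25 single summits of replicate 2, and CDKN1A had none.

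The number of shared summits was set against all windows of the same length along the genome. At least 4 shared summits, the number at CCND1, were found in 1.48% of windows of 25 kb. At least 3, the number at CDKN1A and at E2F1, were found in 2.93% of windows of 22 kb, and 1.66% of windows of 16 kb held the 3 of CDKN1B. For the longer spans the shares of windows were larger. At least 8, as in CCND3, were found in 5.83% of windows of 127 kb, at least 10, as in CDK6, in 11.8% of windows of 242 kb, and at least 3, as in CDKN2A with CDKN2B, in 11.1% of windows of 53 kb. In light bands alone the shares were higher, up to 18.9% for CDK6 and 16.5% for CDKN2A with CDKN2B. The bands of CDKN2A with CDKN2B and of MYC are not themselves light. The surroundings of the genes differed in summit density. The rest of 500 kb on each side held 58.6 shared summits per Mb at CDKN1A, 47.5 at CDKN1B, 46.5 at CCND3 and 37.4 at E2F1. It held 32.3 per Mb at MYC, 21.2 at CDKN2A with CDKN2B, 17.2 at CDK6 and 12.1 at CCND1. Each span with its flanks was denser than its surroundings, from 63.0 against 46.5 per Mb at CCND3 to 160 against 12.1 per Mb at CCND1. The windows cover whole chromosomes, sequence gaps included, and the number of genes in them was not measured here. The members were chosen with earlier results of these data known, so the shares do not measure how unusual a span is.

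**Figure D4:**
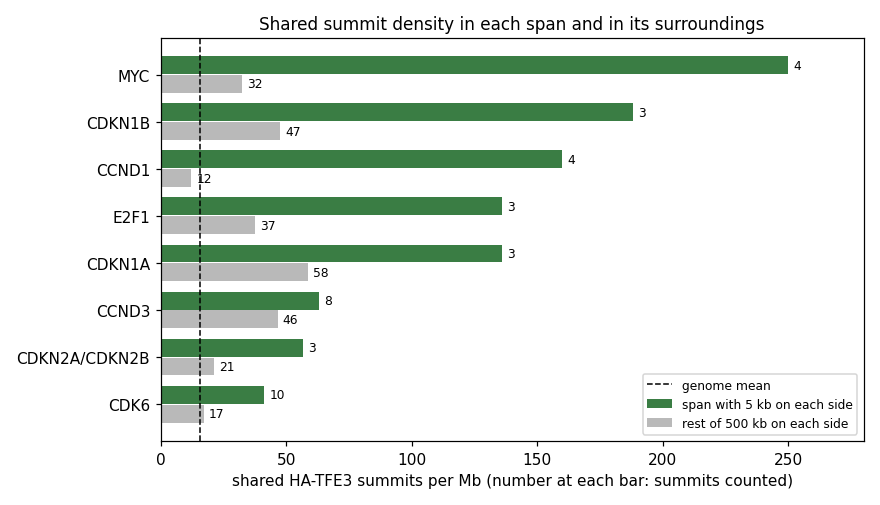
Shared HA-TFE3 summits per Mb (x axis, from 0) in each gene span with 5 kb on each side (green) and in the rest of 500 kb on each side (grey), with the number of summits counted at the end of each bar and the genome mean of 15.6 per Mb as a dashed line. The green bar is the longer one for every span, and the grey bar of CCND1 is below the genome mean.

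Motifs were counted in the promoters that RefSeq lists on GRCh38.p14, 250 bases before to 50 after each start, on both strands. The members had 11 entries for 7 genes, and CCND1 and MYC have no entry. The E-box CACGTG was found in 1 of the 11, at CDK6, against a background of 7.26% of all 35116 entries. TCACGTG, which contains the E-box, and TCATGTG, the variant known for MITF, were found in none, against 3.71% and 2.92% of all entries. The AP-1 motif TGANTCA was found in none, against 7.71%. The E2F motif TTTNGCGC was found in 1, at E2F1, against 1.79%. It was chosen after the sequences were seen, so its counts here and below cannot be weighed against the background. Among other cell cycle and MYC network genes, 22 of a list of 28 had a promoter entry. CACGTG was found in 5 of these, CCNB1, CDK4, CDKN2C, E2F3 and MNT, and TTTNGCGC in 7, CDC25A, CDK1, E2F2, MDM2, MYCN, RBL1 and TFDP1. Counted by gene, 8.77% of the 27305 genes with an entry held CACGTG and 2.17% held TTTNGCGC. TCACGTG was found in 3 genes of the list and TGANTCA in 2, and TCATGTG in none, against 4.49%, 9.37% and 3.59% of all genes. A match says only that the letters are present in this window, and the summits themselves were not placed on these sequences.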

How the data were processed

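HA-TFE3 ChIP-seq of HK-2 cells was represented by a summit list for each of 2 replicates, grouped by sample title. The authors deposited each summit as a 1 bp position named as a peak and scored; the build is hg19, per the submitters' processing notes. The score's scale, the aligner, the peak caller, its thresholds, the use of the input and the read depth were not given in the sources used here. Threshold and depth both set how many summits a list holds.

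Positions were made 1-based, and chromosomes 1 to 22 and X were kept. Spans with at most 6 shared summits have each named; others have the 6 of highest mean percentile and any within 2 kb of the 5′ edge. Members and lists were chosen with earlier results of these data known, and the motif TTTNGCGC after the sequences were seen. Windows were tiled without overlap, and bands came from circlize 0.4.16. Promoters came from RefSeq on GRCh38.p14, and no coordinates were converted. The pairing step was tested on simulated summits whose shared positions lay far apart, so it was not tested for crowded summits. The window step was checked on a small set of written positions. Both lists belong to 1 group, so no contrast was tested. Alternatives were pairing limits of 50, 200 and 500 bp, flanks of 0, 2, 10 and 25 kb, summits above the median score, each list alone, windows in light bands, and 1 or 5 kb from the 5′ edge. Python 3.11.15, NumPy 2.4.6, pandas 2.3.3, SciPy 1.17.1 and matplotlib 3.10.9 were used.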

Additional observations from a re-analysis of the deposited data

How the results depend on the processing

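The lists hold no read counts, so what depth limits was not measured. No paired analysis was possible because both lists belong to 1 group. Leaving out a list gives no value for the percent with a partner or the median percentile of the other list.

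The number of shared summits in the spans was 38, and with a single list it lay between 50 and 63. With a single list CCND1 had 4 to 5 summits, CCND3 14 to 15, CDK6 12 to 19, CDKN1A 3, CDKN1B 5, CDKN2A with CDKN2B 3 to 7, E2F1 4 and MYC 4 to 6. Within 2 kb of the 5′ edge a single list had 11 to 13 summits, with 0 to 2 at CDK6, 1 to 2 at CDKN1B and 3 to 4 at MYC. With a pairing limit of 50 bp, 27 summits were shared, and CCND1 had 2, CCND3 5 and CDK6 6. The shares with a partner were then 54.0% in replicate 1 and 42.9% in replicate 2. At limits of 200 and 500 bp, 40 and 42 were shared. With no flanks, 29 were shared, and CCND1 had 2 while CDKN1B, E2F1 and MYC had 1 each. With flanks of 2 kb CDKN1B had 1, and with 10 kb E2F1 had 5. With 25 kb, CCND3 had 13, CDKN1A 6, CDKN1B 7 and E2F1 6, and the median percentile of replicate 1 was 57.2. With summits above the median score alone, 20 were shared, and CCND1 had 2, CCND3 4, CDK6 5, E2F1 1 and MYC 2. In that setting the median percentiles were 75.8 and 75.2 by construction, and 74.1% of replicate 2 had a partner. Within 2 kb of the 5′ edge there were then 6, with 1 each at CCND3, CDKN2A with CDKN2B and MYC, still in 6 spans. Within 1 kb of the edge CCND1 had 0 and CDKN2A with CDKN2B had 1, in 5 spans with any. Within 5 kb there were 16, with 3 at CCND1, 3 at CDKN1A and 2 at E2F1, in 7 spans. The cause of the other differences was not tested. In light bands alone, the share of windows with as many shared summits was over 1.5 times the genome-wide share for 7 of the 8 spans.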
